A study of Homo sapiens with 12 samples.

Results

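Histone genes were followed through the knockdown of KMT9α in the bladder carcinoma cell lines CAL-29 and 5637. Members were chosen by symbol alone: every gene whose name starts with HIST1H, HIST2H, HIST3H or HIST4H, carries a newer histone name, or is one of the separately named linker, H2A, H2B and H3 genes. This gave 91 of 23064 gene symbols in the deposited tables. By symbol, 68 of these were classed as replication-dependent genes of the histone clusters and 16 as variant genes that lie outside them or bear their own names. A further 4 were classed as testis-type genes and 3 as pseudogenes. HIST2H2BA and HIST2H2BC, counted among the 68, are annotated as pseudogenes. KMT9α, encoded by N6AMT1, is the catalytic subunit of a methyltransferase that acts on a lysine of histone H4. RNA was sequenced at day 3 after transfection with a control siRNA (siCtrl) or an siRNA against KMT9α (siKMT9α#1), with 3 libraries per siRNA in each line, 12 in all. Both lines are established lines with the label of wild-type genotype, and both groups of a line were transfected. The transfection reagent and the siRNA concentration differed between the lines, so neither can be told apart from the line. The count columns call the siRNA si270, and that it is siKMT9α#1 was taken from the study's results.

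Histones are the proteins that package DNA into nucleosomes, each built from the core histones H2A, H2B, H3 and H4 and bound by a linker histone H1. Most of this protein is made during S phase from replication-dependent genes, which lie in clusters, lack introns and give mRNAs that end in a conserved stem-loop in place of a poly(A) tail. The stem-loop is bound by SLBP, which guides cleavage, export and translation of these mRNAs. Variant histones such as H2A.Z, macroH2A, the H3 variant of H3F3A and H3F3B, and the linker histone of H1F0 are made throughout the cell cycle from polyadenylated mRNAs, many of them spliced, and are placed by dedicated chaperones. Some replication-dependent genes also give polyadenylated mRNA, as known from differentiated cells.

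The stem-loop separates most genes of both classes, and its sequence is shown for some of the genes that hold it. It was searched as GG, 4 bases, TT, 6 bases, CC on the sense strand, with 6 paired bases around a loop of 4, within 200 bases after the stop codon in the GRCh37 (hg19) annotation. The stem-loop is in capitals, with 5 flanking bases on each side.
HIST1H2BK: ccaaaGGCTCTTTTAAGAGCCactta
HIST1H2BD: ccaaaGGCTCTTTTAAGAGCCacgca
HIST2H2BE: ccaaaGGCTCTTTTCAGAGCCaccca
HIST1H2AC: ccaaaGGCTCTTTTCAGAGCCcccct
HIST1H1C: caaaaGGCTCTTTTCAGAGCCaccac
HIST1H4H: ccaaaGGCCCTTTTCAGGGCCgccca
H2AFX: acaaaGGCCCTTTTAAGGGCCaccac
These lie in the 3′ UTR or just after the stop codon of their genes, at chr6:27114140-27114165 (minus strand), chr6:26158810-26158835 (plus strand), chr1:149857733-149857758 (minus strand), chr6:26124892-26124917 (plus strand), chr6:26055967-26055992 (minus strand), chr6:26285354-26285379 (minus strand) and chr11:118965603-118965628 (minus strand). The stem-loop was found in 56 of 63 replication-dependent genes with an annotated coding sequence (88.9%) and in 4 of 4 testis-type genes. The replication-dependent genes without a match were HIST1H2AG, HIST1H2AK, HIST1H2BI, HIST1H2BN, HIST1H3E, HIST1H4L and HIST2H2BF. HIST1H3E, HIST2H2BF, HIST1H2AK and HIST1H2AG are among the genes that rose or fell below. Among the 16 variants it was found in 1 (6.25%), H2AFX, and among 18709 other genes in 2 (0.0107%), ATP8B1 and CDC40. All 13 matching H4 genes carried the arm GGCCC, as did H2AFX, and the matching genes of the other families carried GGCTC. A match of these letters is a description and no measurement of how the mRNA ends.

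N6AMT1, the target, had 11.4, 10.2 and 9.68 CPM in the siCtrl libraries and 2.82, 2.93 and 1.99 CPM in the siKMT9α#1 libraries in CAL-29 cells, where CPM are counts relative to the TMM-scaled library size. The log2 fold change was -2.00 ± 0.15 (SE, adjusted p = 1.33e-10) in the quasi-likelihood test of edgeR with Benjamini-Hochberg adjustment, the test behind every adjusted p given here. In 5637 cells, where N6AMT1 had 13.4, 13.2 and 13.3 CPM with siCtrl and 3.75, 2.22 and 2.56 CPM with siKMT9α#1, it was -2.23 ± 0.12 (SE, adjusted p = 1.05e-15). The library totals were between 24479348.5 and 35151256.5 counts. The 9 epithelial and urothelial markers passed the filter on low counts in both lines, against 3 (CAL-29) and 4 (5637) of 9 immune, endothelial and mesenchymal markers. At an adjusted p below 0.05, 1 epithelial marker rose and 7 fell in CAL-29 cells (median log2 fold change -0.75), and 1 rose and 8 fell in 5637 cells (median -0.54). Their part in the histone values was not tested. CAL-29 siCtrl replicate 1 stood apart: its counts differed from those of replicates 2 and 3 by a chi-square per degree of freedom of 8.17 and 12.3, against 3.32 between replicates 2 and 3. Nothing in the labels says that replicates came from separate cultures, so p-values measure the spread between these libraries, which may be technical.

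With siKMT9α#1, 13 of 28 tested replication-dependent histone genes fell, 3 rose and 12 did neither at an adjusted p below 0.05 in CAL-29 cells, and 0 of 17 fell and 4 rose in 5637 cells. The variants moved in both directions in both lines. In CAL-29 cells, 28 of the 68 replication-dependent genes had enough counts to be tested. Of these, 1 was upregulated and 5 were downregulated at an unadjusted p below 1e-06, the threshold of the study, where 15.0% of all 14673 genes tested were upregulated and 15.0% downregulated, so the share that fell was near the background. At an adjusted p below 0.05 the background was 34.3% upregulated and 35.2% downregulated. Without CAL-29 siCtrl replicate 1, 4 of 33 genes were upregulated and 14 downregulated, and with any other library left out 2 to 4 were upregulated and 11 to 13 downregulated. The median log2 fold change of the 28 was -0.65, with a range from -1.52 to 1.83, against a median of -0.016 over all genes tested. In 5637 cells, 17 replication-dependent genes were tested and 0 passed 1e-06 in either direction (background 18.0% upregulated and 17.6% downregulated of 14335 genes), with edgeR and with DESeq2. At an unadjusted p below 0.05 in edgeR's test, 4 were upregulated and 0 downregulated. At an adjusted p below 0.05, 4 were upregulated and 0 downregulated (background 35.1% and 35.6%), and the median was 0.28, with a range from -0.07 to 1.43, against -0.0055 over all genes. The direction of both medians was the same with scaling by total counts and by the upper quartile. A gene passed the filter on low counts where 3 libraries had about 10 counts. HIST1H1E and HIST1H2AK in CAL-29 cells and HIST1H2AG and HIST1H3D in 5637 cells did so in all 3 libraries of the higher group and at most 1 of the other, so a difference was part of their selection and their calls add no support. In bulk RNA, fewer cells in S phase and less RNA per cell cannot be told apart.

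The filter on low counts left out most of the replication-dependent genes, so these counts cover the better measured members alone. Of the 68 genes, a mean below 10 counts per library was found for 41 (CAL-29) and 52 (5637), 10 and 5 had a mean of at least 50, and 4 and 8 had 0 counts in every library. Whether the libraries were made from poly(A) RNA or after removal of ribosomal RNA is not given in the sources used here, so the counts may cover only part of the replication-dependent mRNA. Of 22 listed RNAs without a poly(A) tail that stand in the tables, 7 and 3 had enough counts to be tested in CAL-29 and 5637 cells. At an adjusted p below 0.05, 2 were lower and 0 higher in CAL-29 cells, where 35.2% and 34.3% of all genes tested were. In 5637 cells 0 passed in either direction, where 35.6% of all genes were lower and 35.1% higher. Among the replication-dependent genes, those with more counts had longer annotated 3′ UTRs: in CAL-29 cells the longest 3′ UTR had at least 200 bases for 6 of 10 genes with a mean of at least 50 counts, for 4 of 15 genes between 10 and 50, and for 3 of 38 genes below 10. Summed over all replication-dependent genes, CAL-29 siCtrl libraries had 187.9 to 202.5 CPM and siKMT9α#1 libraries 125.7 to 136.5 CPM, so the groups did not overlap. The sum in 5637 cells was 64.16 to 69.38 CPM with siCtrl and 70.22 to 73.89 CPM with siKMT9α#1, a smaller gap in the other direction. A few genes made up most of the sum: the leading 5 held 78.1% of it in CAL-29 siCtrl libraries and 88.5% in those of 5637 cells, by counts that are not corrected for length.

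Among the genes with the most counts, HIST2H2BE, HIST1H2AC and HIST1H2BK fell in CAL-29 cells and did not pass in 5637 cells. HIST2H2BE, an H2B gene of the cluster on chromosome 1, had 19, 19.4 and 19.8 CPM in the siCtrl libraries and 7.17, 6.8 and 6.92 CPM in the siKMT9α#1 libraries. Every siKMT9α#1 library lay far below the lowest siCtrl library, and the log2 fold change was -1.48 ± 0.091 (SE, adjusted p = 7.97e-12). In 5637 cells it had 8.77, 8.03 and 9.54 CPM in the siCtrl libraries and 8.51, 7.9 and 8.63 CPM in the siKMT9α#1 libraries, where the groups overlapped and the log2 fold change was -0.07 ± 0.095 (SE, adjusted p = 0.493). HIST1H2AC, an H2A gene of the large cluster on chromosome 6, fell in CAL-29 cells from 15.1, 19.1 and 17.1 CPM with siCtrl to 7.21, 6.77 and 7.16 CPM with siKMT9α#1, a log2 fold change of -1.28 ± 0.10 (SE, adjusted p = 8.2e-10). Its 5637 libraries had 2.51, 2.83 and 3.03 CPM with siCtrl and 3.26, 3.62 and 3.28 CPM with siKMT9α#1, groups that did not overlap, but the log2 fold change of 0.28 ± 0.15 (SE, adjusted p = 0.0956) did not pass. HIST1H2BK, an H2B gene of the same cluster, had 71.8, 75.8 and 79.9 CPM in the siCtrl libraries and 46.3, 41.8 and 47.5 CPM in the siKMT9α#1 libraries in CAL-29 cells, and 29.9, 32.7 and 30.0 CPM in the siCtrl libraries and 29.5, 31.1 and 30.7 CPM in the siKMT9α#1 libraries in 5637 cells. It fell in CAL-29 cells, with a log2 fold change of -0.75 ± 0.059 (SE, adjusted p = 4.6e-10), and stayed at overlapping levels in 5637 cells, at -0.02 ± 0.055 (SE, adjusted p = 0.767). Of the 50-base windows of HIST1H2BK, 57.2% also occur in other genes, so part of its reads could belong to related H2B genes.

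HIST1H2BD, a further H2B gene of that cluster, passed an adjusted p of 0.05 in opposite directions. In CAL-29 cells it fell from 25.8, 31.7 and 30.3 CPM to 19.8, 20.2 and 17.2 CPM, with a log2 fold change of -0.62 ± 0.084 (SE, adjusted p = 1.64e-06). In 5637 cells it rose from 4.66, 5.33 and 4.77 CPM to 7.46, 6.68 and 7.22 CPM, with a log2 fold change of 0.54 ± 0.11 (SE, adjusted p = 8.19e-05). In neither line did the groups overlap. The CAL-29 value passed 1e-06 with all libraries but not without siCtrl replicate 2 or 3 or without siKMT9α#1 replicate 1, 2 or 3, where the log2 fold change was between -0.66 and -0.55. HIST1H1C, a linker histone gene, had 11.3, 12.6 and 12.4 CPM in the siCtrl libraries and 12, 10.1 and 10.3 CPM in the siKMT9α#1 libraries in CAL-29 cells and 10.9, 11.7 and 12.2 CPM in the siCtrl libraries and 11.2, 12.8 and 12.8 CPM in the siKMT9α#1 libraries in 5637 cells. The groups overlapped in both lines, and the log2 fold changes were -0.16 (adjusted p = 0.162) and 0.09 (adjusted p = 0.361). These 5 were the replication-dependent genes with a mean of at least 50 counts per library in both lines.

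**Figure D1:**
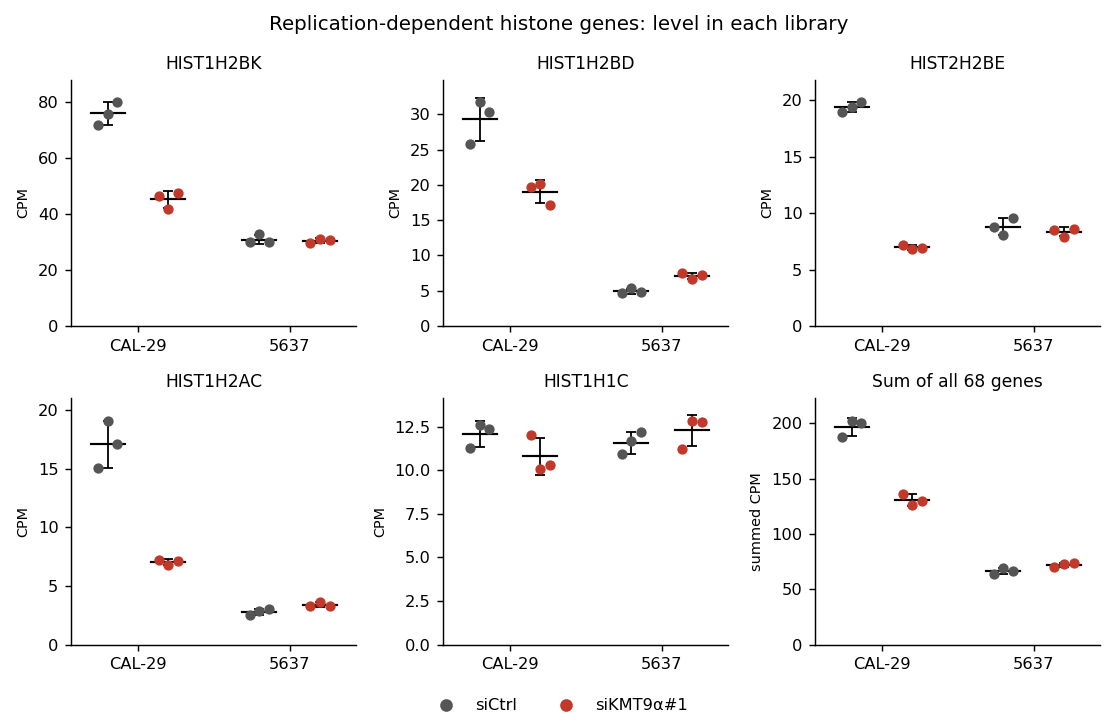
CPM after TMM scaling (linear axis from 0) of replication-dependent histone genes in the 12 libraries, with a panel for each gene. Points are libraries and bars the mean with the SD over 3 libraries. HIST2H2BE and HIST1H2AC fell in CAL-29 cells without overlap of the groups, HIST1H2BD moved in opposite directions in the lines, and the groups of HIST1H1C overlapped in both.

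By family, counts at an adjusted p below 0.05 in CAL-29 cells are read against the 35.2% of all genes tested that were downregulated there. Of the tested genes, 5 of 11 H2B genes were downregulated and 1 upregulated, 3 of 8 H2A genes were downregulated and 1 upregulated, 2 of 4 H3 genes were downregulated, and all 3 tested H4 genes were downregulated. Of 2 linker genes tested, 1 was upregulated. The 11 H2B genes include HIST2H2BC, annotated as a pseudogene, which was not called. In 5637 cells, 2 of 7 H2B, 1 of 4 H2A and 1 of 3 H3 genes were upregulated (background 35.1%), and 0 of 2 linker genes and 0 of 1 H4 gene passed. The H2A and H3 calls in 5637 cells are HIST1H2AG and HIST1H3D. In CAL-29 cells the linker call is HIST1H1E, and HIST1H2AK is among the H2A genes that fell. These genes passed the filter on low counts through the higher group, so their calls add no support to the family counts. H4 carries the lysine that KMT9 methylates. Its tested genes HIST1H4H, HIST1H4E and HIST4H4, which were chosen after their values were seen, as were HIST1H3E and the genes that close this list, had log2 fold changes of -1.02 (adjusted p = 6.1e-05), -1.28 (adjusted p = 0.000453) and -1.02 (adjusted p = 0.0037) in CAL-29 cells. HIST1H4H had 5.79, 5.24 and 3.78 CPM in the siCtrl libraries and 2.86, 2.1 and 2.31 CPM in the siKMT9α#1 libraries. The other H4 genes had too few counts to be tested. HIST1H3E, an H3 gene, had 4.61, 3.63 and 3.63 CPM in the siCtrl libraries and 1.62, 1.4 and 1.07 CPM in the siKMT9α#1 libraries in CAL-29 cells, with a log2 fold change of -1.52 ± 0.21 (SE, adjusted p = 1.55e-06). It passed 1e-06 with all libraries but not without siCtrl replicate 2 or siKMT9α#1 replicate 1, 2 or 3, where the value was between -1.65 and -1.38. In 5637 cells it was 0.11 (adjusted p = 0.81). HIST1H3E, HIST2H2BE, HIST1H2AC, HIST1H2BK and HIST1H2BD were the 5 genes downregulated at 1e-06. The remaining downregulated genes of CAL-29 cells were HIST1H3D, given below, HIST1H2AD, at -0.83 (adjusted p = 0.0199), HIST1H2AK, at -1.44 (adjusted p = 0.00346), HIST1H2BC, at -0.86 (adjusted p = 0.0144) and HIST1H2BG, at -0.90 (adjusted p = 0.0128). Of these, HIST1H2BG lost its call without siCtrl replicate 1 (-0.67, adjusted p = 0.0708) and without siKMT9α#1 replicate 1 or 3, HIST1H2BC without siCtrl replicate 2 or siKMT9α#1 replicate 3, and HIST1H2AD without siCtrl replicate 2 or 3 or siKMT9α#1 replicate 2 or 3. The value of HIST1H2AK without siKMT9α#1 replicate 1 was -2.17.

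HIST2H2BF was the H2B gene upregulated in CAL-29 cells. This gene of chromosome 1, chosen after its values were seen, had 6.2, 5.08 and 4.91 CPM in the siCtrl libraries and 13, 11.8 and 10.3 CPM in the siKMT9α#1 libraries in CAL-29 cells. It rose, with a log2 fold change of 1.12 ± 0.12 (SE, adjusted p = 9.02e-08), and was not tested in 5637 cells. The tables hold 2 transcripts of this gene, and they moved apart. The transcript NM_001024599, from which these values come, rose, while NM_001161334 had 1.22, 2.27 and 1.4 CPM with siCtrl and 0.454, 1.25 and 0.338 CPM with siKMT9α#1, where 1 siKMT9α#1 library overlapped the siCtrl range. In a fit over all transcripts the latter had a log2 fold change of -1.22 ± 0.38 (SE, adjusted p = 0.00801). In addition, 58.3% of the 50-base windows of this gene also occur in other genes, so its level is uncertain. Linker gene HIST1H1E, also chosen after its values were seen, rose in CAL-29 cells from 0.326, 0.313 and 0.227 CPM to 1.01, 0.915 and 1.19 CPM, with a log2 fold change of 1.83 ± 0.37 (SE, adjusted p = 0.000166). It passed the filter on low counts through the siKMT9α#1 libraries alone, with 0 of 3 siCtrl libraries at the minimum. HIST3H2A, an H2A gene, had a log2 fold change of 0.29 (adjusted p = 0.0496), the third and last replication-dependent gene upregulated in CAL-29 cells, and it missed the adjusted p with any 1 of the 6 libraries left out (0.25 to 0.34). With upper quartile scaling, 2 replication-dependent genes were upregulated at an adjusted p below 0.05.

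The 4 replication-dependent genes upregulated in 5637 cells at an adjusted p below 0.05 were HIST1H2BD, given above, HIST1H3D, HIST1H2AG and HIST1H2BJ. HIST1H3D, an H3 gene, had 0.215, 0.45 and 0.168 CPM in the siCtrl libraries and 0.525, 0.738 and 0.722 CPM in the siKMT9α#1 libraries in 5637 cells and a log2 fold change of 1.27 ± 0.40 (SE, adjusted p = 0.00551). In CAL-29 cells it fell from 3.26, 2.81 and 3.7 CPM to 2.53, 1.92 and 1.59 CPM, with a log2 fold change of -0.68 ± 0.21 (SE, adjusted p = 0.00578). These are low levels, and 96.6% of its exon bases overlap a further annotated gene on the same strand, so its reads are uncertain. HIST1H2AG, an H2A gene, and HIST1H2BJ, an H2B gene, were chosen after their values were seen. HIST1H2AG had 0.46, 0.161 and 0.281 CPM in the siCtrl libraries and 0.824, 0.775 and 0.853 CPM in the siKMT9α#1 libraries in 5637 cells, a log2 fold change of 1.43 ± 0.36 (SE, adjusted p = 0.000941), where the CAL-29 value was -0.78 (adjusted p = 0.0757). HIST1H2AG and HIST1H3D passed the filter in 5637 cells with 3 siKMT9α#1 libraries and 1 siCtrl library at the minimum, so both had to be higher with siKMT9α#1 to be tested. HIST1H2BJ had 0.675, 0.45 and 0.533 CPM in the siCtrl libraries and 1.27, 0.738 and 0.919 CPM in the siKMT9α#1 libraries in 5637 cells, a log2 fold change of 0.81 (adjusted p = 0.0188), and missed the adjusted p without siCtrl replicate 2 or 3 or siKMT9α#1 replicate 1 (0.59 to 0.78).

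An interaction of line and siRNA, fitted to all 12 libraries, tested whether the response depended on the line. The response of 20 of 42 tested histone genes differed at an adjusted p below 0.05, where 50.4% of all 15395 genes did, so the number as such was near the background. Among replication-dependent genes, 11 of 29 responded higher in 5637 cells and 1 responded lower (background 21.9% and 28.5%). Of the 16 that were tested in each line alone, 8 responded higher and 1 lower. The 8 include HIST1H2AG and HIST1H3D, and the 1 is HIST1H1E. HIST1H2AG and HIST1H3D passed the filter in 5637 cells, and HIST1H1E that in CAL-29 cells, through the higher group, so they add no support. The other 3 with a higher response, HIST1H2AD, HIST1H2AI and HIST1H2AK, were not tested in 5637 cells alone and entered the joint fit through CAL-29 libraries, so their response in 5637 cells rests on few counts. Among variants, 2 of 11 responded higher in 5637 cells and 5 lower. Of the 16 replication-dependent genes tested in both lines, 14 had a lower log2 fold change in CAL-29 cells. Of the 16, 10 were negative there and positive in 5637 cells. HIST1H2AG and HIST1H3D are among the 14 and among the 10. At an adjusted p below 0.05, 0 were called in the same direction in both lines. The same shares over all genes tested in both lines were not counted. These counts thus have no background beside them and are given as a description. The difference, given as the log2 fold change in 5637 cells minus that in CAL-29 cells, was 1.54 ± 0.18 (SE, adjusted p = 2.38e-08) for HIST1H2AC, 1.39 ± 0.13 (SE, adjusted p = 4.04e-10) for HIST2H2BE, 1.14 ± 0.14 (SE, adjusted p = 7.57e-08) for HIST1H2BD and 0.71 ± 0.082 (SE, adjusted p = 2.24e-08) for HIST1H2BK. For HIST1H1C it was 0.23 ± 0.13 (SE, adjusted p = 0.144). With at least 10 counts required in every library, 13 histone genes had such an interaction. Line, reagent and siRNA concentration cannot be told apart in this difference.

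**Figure D2:**
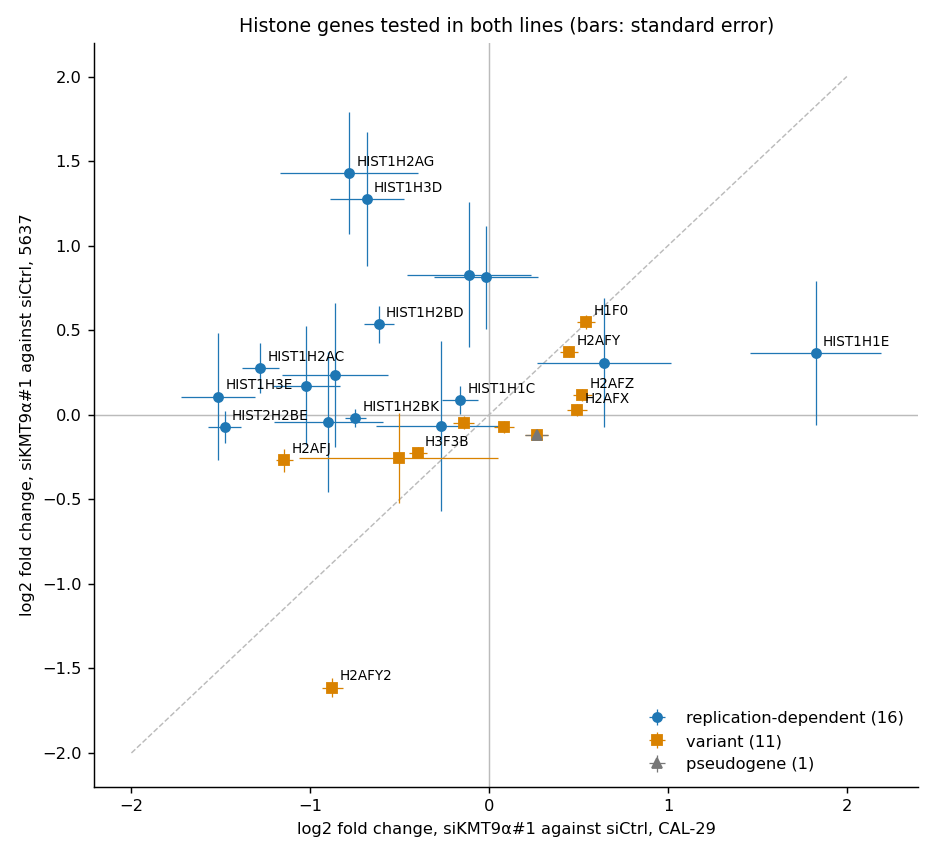
Log2 fold change with siKMT9α#1 in CAL-29 cells (x axis) against 5637 cells (y axis) for each histone gene tested in both lines, with bars of 1 standard error. Replication-dependent genes lie mostly to the left of 0 on the x axis, with HIST2H2BE at -1.48 and -0.07, while H1F0 and H2AFY lie above 0 and H2AFY2 below 0 on both axes. The dashed line marks an equal response.

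The promoters of H2A and H2B genes share an octamer, the binding letters of the OCT1 factor encoded by POU2F1, which is known as a regulator of H2B transcription in S phase. Promoters of HIST1H2BK and HIST2H2BE, whose responses differed between the lines, are shown from 250 bases before to 50 bases after the start site (RefSeq, GRCh38.p14), with the octamer in capitals.
HIST1H2BK: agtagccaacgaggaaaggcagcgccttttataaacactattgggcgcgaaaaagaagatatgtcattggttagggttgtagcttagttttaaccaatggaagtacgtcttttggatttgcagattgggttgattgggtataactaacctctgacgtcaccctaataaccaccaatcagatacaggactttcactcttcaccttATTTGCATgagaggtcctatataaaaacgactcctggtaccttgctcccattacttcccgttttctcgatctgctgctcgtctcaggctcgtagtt
HIST2H2BE: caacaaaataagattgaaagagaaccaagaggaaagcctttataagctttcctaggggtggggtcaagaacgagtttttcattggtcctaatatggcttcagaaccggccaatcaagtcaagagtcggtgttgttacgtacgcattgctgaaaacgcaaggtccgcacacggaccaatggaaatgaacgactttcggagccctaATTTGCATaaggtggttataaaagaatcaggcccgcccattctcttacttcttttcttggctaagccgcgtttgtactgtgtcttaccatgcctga
They lie at chr6:27146809-27147108 (minus strand) and chr1:149886633-149886932 (minus strand). The octamer ATTTGCAT, searched on both strands, was found in 492 of 27305 promoters of this length (1.8%). It was found in 11 of 15 matched H2B genes (73.3%) and 10 of 14 H2A genes (71.4%), in 1 of 11 H3 genes, and in 0 of 11 H4 and 0 of 5 linker genes. Among variants it was found in 1 of 14. In CAL-29 cells, 6 of 12 tested genes with it were downregulated at an adjusted p below 0.05 and 1 upregulated (median log2 fold change -0.72). Of 13 without it, 6 were downregulated and 2 upregulated (median -0.62), against 35.2% and 34.3% of all genes tested. In 5637 cells, 3 of 10 genes with it and 1 of 6 without it were upregulated (background 35.1%), and 0 were downregulated (background 35.6%). HIST1H1E and HIST1H2AK in CAL-29 cells and HIST1H2AG and HIST1H3D in 5637 cells passed the filter on low counts through the higher group. Their calls add no support to a difference between genes with and without the octamer. The octamer stood at the same distance from the start site in both promoters shown, 38 bases from its last base. POU2F1, taken from the list of histone mRNA factors after its values were seen, had log2 fold changes of 0.55 (adjusted p = 2.2e-07) in CAL-29 cells and 0.62 (adjusted p = 4.43e-11) in 5637 cells.

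Among the 16 variant genes, 11 were tested in each line. In CAL-29 cells 4 were upregulated and 3 downregulated at 1e-06, against a background of 15.0% each way. In 5637 cells 2 and 2 were, against 18.0% and 17.6%. At an adjusted p below 0.05 the counts were 5 and 4 in CAL-29 cells (background 34.3% and 35.2%). In 5637 cells they were 3 and 4 (background 35.1% and 35.6%). H2AFV is among the 4 that fell in CAL-29 cells by its most counted transcript, while its other transcripts rose. Their median log2 fold changes were 0.08 (CAL-29) and -0.07 (5637). Without CAL-29 siKMT9α#1 replicate 3, 4 of 11 passed 1e-06 in that line, since the values of H2AFX (0.44), H2AFY (0.45) and H3F3B (-0.40) then missed it. The 5 genes not tested in either line were H2AFB1, H2AFB2, H2AFB3, H2BFM and H2BFWT. Over the class, the summed level moved little, from 1598 to 1795 CPM with siCtrl and from 1756 to 1800 CPM with siKMT9α#1 in CAL-29 cells, and from 2256 to 2333 CPM and from 2179 to 2318 CPM in 5637 cells.

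The genes for macroH2A passed 1e-06 in both lines, 1 lower and 1 higher with siKMT9α#1. MacroH2A proteins carry a large domain outside the nucleosome and are known from silenced chromatin. H2AFY2, which encodes macroH2A2, had 59.6, 67.9 and 66.1 CPM in the siCtrl libraries and 35.3, 36 and 34.2 CPM in the siKMT9α#1 libraries in CAL-29 cells. In 5637 cells it had 62.9, 63.8 and 68.8 CPM in the siCtrl libraries and 21.7, 22.8 and 19.5 CPM in the siKMT9α#1 libraries. It fell 1.84-fold in CAL-29 cells, with a log2 fold change of -0.88 ± 0.059 (SE, adjusted p = 3.97e-11), and 3.06-fold in 5637 cells, -1.61 ± 0.056 (SE, adjusted p = 1.88e-20), with no overlap of the groups. H2AFY, which encodes macroH2A1, rose from 211, 237 and 231 CPM to 301, 314 and 311 CPM in CAL-29 cells, 0.45 ± 0.050 (SE, adjusted p = 8.71e-08), and from 222, 227 and 228 CPM to 283, 296 and 297 CPM in 5637 cells, 0.37 ± 0.032 (SE, adjusted p = 2.87e-11). The fall of H2AFY2 was larger in 5637 cells, with a difference between the lines of -0.75 ± 0.085 (SE, adjusted p = 1.74e-08).

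H2AFJ, which encodes H2A.J, fell in both lines to unequal extents. In CAL-29 cells it had 106, 109 and 109 CPM in the siCtrl libraries and 49.7, 49.1 and 47.6 CPM in the siKMT9α#1 libraries, a 2.21-fold fall with a log2 fold change of -1.15 ± 0.049 (SE, adjusted p = 1.94e-14). In 5637 cells it had 18.4, 17.3 and 18.4 CPM in the siCtrl libraries and 14.3, 15.5 and 15.1 CPM in the siKMT9α#1 libraries, a log2 fold change of -0.27 ± 0.069 (SE, adjusted p = 0.00104) that passed the adjusted p but not 1e-06. The groups did not overlap in either line, and the difference between the lines was 0.86 ± 0.076 (SE, adjusted p = 1.54e-10). H2AFZ and H2AFV encode the H2A.Z proteins, which mark promoters. H2AFZ rose in CAL-29 cells from 147, 172 and 172 CPM to 238, 239.6 and 228 CPM, 0.52 ± 0.055 (SE, adjusted p = 4.55e-08). In 5637 cells the 321, 338 and 341 CPM with siCtrl and 337, 379.5 and 368 CPM with siKMT9α#1 overlapped, at 0.12 ± 0.037 (SE, adjusted p = 0.00674). This 5637 value passed the adjusted p, but missed it without siKMT9α#1 replicate 2 (0.08, adjusted p = 0.0706). H2AFX, whose protein is phosphorylated at DNA double-strand breaks, rose in CAL-29 cells from 52.6, 56.4 and 56.9 CPM to 73.7, 76.1 and 83.8 CPM, 0.49 ± 0.057 (SE, adjusted p = 1.6e-07), while its 125, 121 and 133 CPM with siCtrl and 126, 132 and 128 CPM with siKMT9α#1 overlapped in 5637 cells, at 0.03 ± 0.038 (SE, adjusted p = 0.507). Without siCtrl replicate 2 or siKMT9α#1 replicate 3 the CAL-29 value of H2AFX was 0.51 or 0.44 and missed 1e-06. H2AFX was the variant with a stem-loop, and its response differed between the lines by -0.48 (adjusted p = 1.56e-06), lower in 5637 cells.

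H1F0 rose in both lines. It encodes a linker histone known to accumulate in differentiated and resting cells. It had 145, 161 and 143 CPM in the siCtrl libraries and 215, 218 and 221 CPM in the siKMT9α#1 libraries in CAL-29 cells and 113, 129 and 114 CPM in the siCtrl libraries and 169, 177 and 173 CPM in the siKMT9α#1 libraries in 5637 cells. Every siKMT9α#1 library lay above every siCtrl library in each line, and the log2 fold changes were 0.54 ± 0.050 (SE, adjusted p = 5.15e-09) and 0.55 ± 0.041 (SE, adjusted p = 1.16e-12), a difference of -0.01 ± 0.068 (SE, adjusted p = 0.923). H1FX, a further linker variant, had overlapping groups in both lines, with 96, 108 and 106 CPM in the siCtrl libraries and 108, 104 and 116 CPM in the siKMT9α#1 libraries in CAL-29 cells and 192, 189.6 and 206 CPM in the siCtrl libraries and 182, 189.8 and 187 CPM in the siKMT9α#1 libraries in 5637 cells. Its log2 fold changes were 0.08 ± 0.054 (SE, adjusted p = 0.179) and -0.07 ± 0.035 (SE, adjusted p = 0.0733).

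H3F3A and H3F3B encode the same replacement H3 protein, and they moved apart in CAL-29 cells. H3F3B fell in CAL-29 cells from 498, 555 and 559.6 CPM to 408, 406 and 409 CPM, -0.40 ± 0.051 (SE, adjusted p = 6.41e-07), and in 5637 cells from 774, 817 and 779 CPM to 642, 695 and 690.4 CPM, -0.23 ± 0.033 (SE, adjusted p = 6.61e-07). H3F3A had 164, 194 and 209.6 CPM in the siCtrl libraries and 216, 236 and 229.6 CPM in the siKMT9α#1 libraries in CAL-29 cells, 0.27 ± 0.066 (SE, adjusted p = 0.00128), and 312, 310.0 and 322 CPM in the siCtrl libraries and 292, 292 and 287 CPM in the siKMT9α#1 libraries in 5637 cells, -0.12 ± 0.031 (SE, adjusted p = 0.00139). Without CAL-29 siCtrl replicate 1, the library that stood apart, the CAL-29 value was 0.17 (adjusted p = 0.000254). With all libraries it passed the adjusted p in opposite directions in the lines, with a difference of -0.40 ± 0.079 (SE, adjusted p = 0.00011). The counts of the pseudogene H3F3AP4 differed from those of H3F3A by at most 4 per library, so these data cannot tell them apart. H3F3B did not pass 1e-06 in CAL-29 cells without siCtrl replicate 2 or siKMT9α#1 replicate 1, 2 or 3, where its value was between -0.40 and -0.37, or in 5637 cells without siCtrl replicate 2 or siKMT9α#1 replicate 1 or 3, where it was between -0.24 and -0.19. H3F3C, a retroposed copy, was below 1 CPM in each library, with 0.408, 0.469 and 0.227 CPM in the siCtrl libraries and 0.26, 0.427 and 0.0398 CPM in the siKMT9α#1 libraries in CAL-29 cells and 0.951, 0.963 and 0.898 CPM in the siCtrl libraries and 0.674, 0.812 and 0.853 CPM in the siKMT9α#1 libraries in 5637 cells. It passed in neither line, at -0.51 (adjusted p = 0.428) and -0.26 (adjusted p = 0.4).

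**Figure D3:**
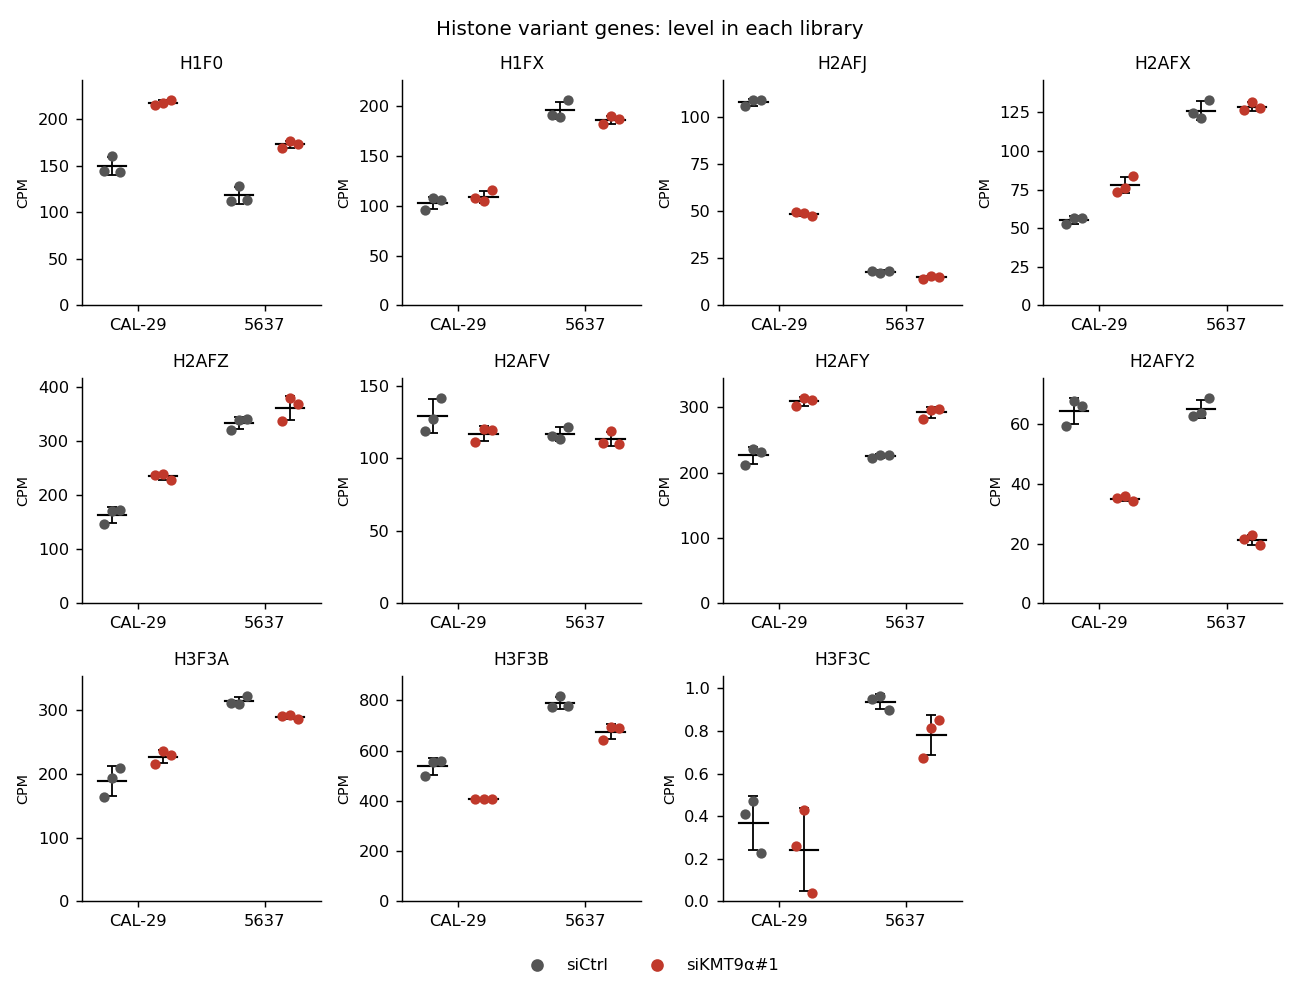
CPM after TMM scaling (linear axis from 0) of histone variant genes in the 12 libraries, with a panel for each gene. Points are libraries and bars the mean with the SD over 3 libraries. H2AFY2 and H3F3B were lower and H1F0 and H2AFY higher with siKMT9α#1 in both lines, without overlap of the groups, whereas H2AFX and H2AFZ rose in CAL-29 cells and overlapped in 5637 cells.

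For H2AFV, the transcripts of the gene moved in different ways. At the level of the row with the most counts, NM_138635, it had 119, 127 and 141 CPM in the siCtrl libraries and 111, 120.1 and 119.5 CPM in the siKMT9α#1 libraries in CAL-29 cells, -0.14 ± 0.057 (SE, adjusted p = 0.0322), and 115, 113 and 122 CPM in the siCtrl libraries and 111, 118 and 109.7 CPM in the siKMT9α#1 libraries in 5637 cells, -0.05 ± 0.039 (SE, adjusted p = 0.27). The groups overlapped in both lines. The CAL-29 value missed the adjusted p without siCtrl replicate 3 (-0.06, adjusted p = 0.335), without siCtrl replicate 2 and without siKMT9α#1 replicate 1 or 3. In a fit over all transcripts, the transcript NM_012412 rose, by 0.31 ± 0.061 (SE, adjusted p = 0.000164) in CAL-29 cells and 0.18 ± 0.039 (SE, adjusted p = 0.000142) in 5637 cells. The other transcripts, NM_201436, NM_201516 and NM_201517, rose by 0.25 to 0.28 in CAL-29 cells and 0.16 to 0.18 in 5637 cells, each at an adjusted p below 0.05. The call of H2AFV as downregulated in CAL-29 cells thus rests on NM_138635 alone. Counts of NM_138635 beyond those of NM_012412 made up 32.7, 30.8 and 30.2% of NM_138635 in the siCtrl libraries of CAL-29 cells and 5.1, 5.81 and 6.67% in the siKMT9α#1 libraries. In 5637 cells these shares were 19.4, 14.3 and 17.6% and 3.8, 2.65 and 1.44%. The share of counts found beyond NM_012412 was thus lower in each siKMT9α#1 library than in any siCtrl library of its line. This is a subtraction of table rows without a test, and the exon structures behind the rows were not analysed here.

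An siRNA can also lower mRNAs that pair with bases 2 to 8 of its guide strand, as a miRNA does, and this site was looked up in the longest annotated 3′ UTR of each member. The site for siKMT9α#1 is ACATTCA, and it is in capitals in the genes that hold it and passed 1e-06.
H2AFY2: ttttacacACATTCAcacaagaa
H3F3B: aatgttttACATTCAcaagtggt
HIST1H2AC: taagtattACATTCAcagggttc
They lie in the 3′ UTRs of these genes at chr10:71871720-71871742 (plus strand), chr17:73774096-73774118 (minus strand) and chr6:26138529-26138551 (plus strand) of GRCh37. Of the tested members with an annotated 3′ UTR, 4 of 36 (CAL-29) and 4 of 27 (5637) hold it: these 3 and H3F3C. In CAL-29 cells, 15.0% of all 3′ UTRs tested held the site, and 30.4% of the genes with it were downregulated at 1e-06 against 13.2% of those without. In 5637 cells, 15.4% held it, with 38.8% against 15.1% downregulated. H2AFY2 and H3F3B fell in both lines and HIST1H2AC in CAL-29 cells. In HIST1H2AC the site is at base 264 of the 3′ UTR, while the stem-loop stands 43 bases after the stop codon. An mRNA of HIST1H2AC that ends at the stem-loop would thus not hold the site. The part of the site in these falls was not tested. H2AFJ, HIST2H2BE and HIST1H2BK, which fell in CAL-29 cells, do not hold it in their longest annotated 3′ UTR.

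Factors that transcribe and process replication-dependent histone mRNA were given from a list of 38, of which 36 were tested. In CAL-29 cells, 23 of them were upregulated and 6 downregulated at an adjusted p below 0.05 (median log2 fold change 0.22), where 34.3% and 35.2% of all genes tested were, and in 5637 cells 15 and 10, against 35.1% and 35.6% of all genes (median 0.03, which turned to -0.02 with scaling by total counts and -0.01 with the upper quartile). SLBP, the stem-loop binding protein, had 37.9, 38.3 and 40.7 CPM in the siCtrl libraries and 54.2, 53.5 and 55.5 CPM in the siKMT9α#1 libraries in CAL-29 cells, with a log2 fold change of 0.48 ± 0.055 (SE, adjusted p = 1.58e-07), and 50.4, 51.8 and 53 CPM in the siCtrl libraries and 52.5, 54.1 and 53.6 CPM in the siKMT9α#1 libraries in 5637 cells, 0.05 ± 0.044 (SE, adjusted p = 0.364). SLBP rose in CAL-29 cells, where 13 of 28 tested replication-dependent histone genes fell, 3 rose and 12 did neither at an adjusted p below 0.05. ERI1, the exonuclease that trims and degrades histone mRNA at the stem-loop, rose from 27.6, 25.9 and 27 CPM to 67.5, 68.8 and 59.9 CPM in CAL-29 cells, 1.29 ± 0.063 (SE, adjusted p = 2.18e-13), and from 21.4, 20.2 and 21.1 CPM to 41.6, 39.5 and 39.5 CPM in 5637 cells, 0.94 ± 0.055 (SE, adjusted p = 3.63e-15). LSM11, a subunit of the U7 particle that guides cleavage, fell in both lines, at -0.95 (adjusted p = 1.91e-06) and -0.55 (adjusted p = 5.55e-06). Its partner LSM10 rose in CAL-29 cells, 0.34 (adjusted p = 0.00345), and was -0.13 (adjusted p = 0.1) in 5637 cells. ZNF473, which binds that particle, rose in both, 0.45 (adjusted p = 3.82e-06) and 0.89 (adjusted p = 2.04e-15). Of the transcription factors of the histone locus, NPAT had 0.22 (adjusted p = 0.00754) and 0.03 (adjusted p = 0.639), CASP8AP2 0.25 (adjusted p = 0.00107) and 0.19 (adjusted p = 0.00256), and HINFP, which acts on H4 genes, -0.06 (adjusted p = 0.533) and 0.22 (adjusted p = 0.00568) in CAL-29 and 5637 cells.

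Histone chaperones and deposition factors were mostly upregulated in CAL-29 cells. Of 39 tested, 30 were upregulated and 4 downregulated there at an adjusted p below 0.05 (median 0.44, background 34.3% and 35.2%), against 22 and 11 in 5637 cells (median 0.11, background 35.1% and 35.6%). NASP, a carrier of H3 and H4, rose in CAL-29 cells by 1.06 ± 0.047 (SE, adjusted p = 4.32e-14) and in 5637 cells by 0.19 ± 0.032 (SE, adjusted p = 4.55e-06). The CAF-1 subunits CHAF1A and CHAF1B, which place H3 and H4 at the replication fork, were 0.73 (adjusted p = 5.22e-10) and 0.46 (adjusted p = 0.000121) in CAL-29 cells and 0.11 (adjusted p = 0.0107) and -0.10 (adjusted p = 0.0514) in 5637 cells. ASF1A, which hands H3 and H4 to both pathways, was 0.44 (adjusted p = 7e-07) and 0.19 (adjusted p = 0.00331), and ASF1B changed in opposite directions, 0.41 (adjusted p = 1.09e-05) and -0.54 (adjusted p = 1.42e-11). Among factors for the replacement H3, HIRA rose in both lines, by 1.21 ± 0.057 (SE, adjusted p = 9.72e-14) and 1.03 ± 0.041 (SE, adjusted p = 5.96e-19), and ATRX fell in both, at -0.92 ± 0.054 (SE, adjusted p = 3.98e-12) and -1.09 ± 0.051 (SE, adjusted p = 1.95e-17). DAXX, the partner of ATRX, was 0.38 (adjusted p = 1.45e-06) and 0.04 (adjusted p = 0.465). ANP32E, which removes H2A.Z, rose by 0.80 (adjusted p = 2.25e-11) and 0.29 (adjusted p = 2.55e-08).

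CENPA, the H3 variant of the centromere, whose symbol places it outside the histone names used here, rose from 5.14, 7.07 and 7.14 CPM to 20.2, 23.1 and 23 CPM in CAL-29 cells, 1.77 ± 0.11 (SE, adjusted p = 1.1e-11), and from 10.2, 9.76 and 11 CPM to 20.0, 19.7 and 20.3 CPM in 5637 cells, 0.95 ± 0.073 (SE, adjusted p = 2.22e-12). Its chaperone HJURP rose with it, 1.36 (adjusted p = 2.24e-14) and 0.72 (adjusted p = 4.28e-13). For both genes no siKMT9α#1 library overlapped the siCtrl libraries of its line, and the rise was smaller in 5637 cells, with a difference between the lines of -0.83 (adjusted p = 7.79e-06) for CENPA and -0.66 (adjusted p = 2.49e-08) for HJURP.

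Genes of S phase DNA replication, which are expressed when replication-dependent histones are made, differed from the histone genes in the direction of most calls in CAL-29 cells. At an adjusted p below 0.05, CAL-29 cells had 31 of 35 genes upregulated and 2 downregulated (median 0.48, background 34.3% and 35.2%), and 5637 cells had 6 upregulated and 19 downregulated (median -0.10, background 35.1% and 35.6%). PCNA, the sliding clamp, rose in CAL-29 cells from 145, 173 and 163 CPM to 259.6, 258 and 249 CPM, 0.67 ± 0.055 (SE, adjusted p = 9.64e-10), and fell in 5637 cells from 225, 229 and 240.2 CPM to 194, 199 and 194 CPM, -0.25 ± 0.033 (SE, adjusted p = 1.84e-07). MCM2, a helicase subunit and H3-H4 chaperone, was 0.71 (adjusted p = 2.04e-11) and -0.07 (adjusted p = 0.0401). In the interaction test, 34 of the 35 responded lower in 5637 cells at an adjusted p below 0.05 (background 28.5%). Of 29 replication-dependent histone genes, 11 responded higher there (background 21.9%) and 1 lower. The 11 include HIST1H2AG and HIST1H3D, which passed the filter in 5637 cells through the higher group. They also include HIST1H2AD, HIST1H2AI and HIST1H2AK, which had few counts in 5637 cells. The share of cells in S phase was not measured in these libraries, and its part in the histone values was not tested. SLBP and MCM2 each stand in 2 of these lists.

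**Figure D4:**
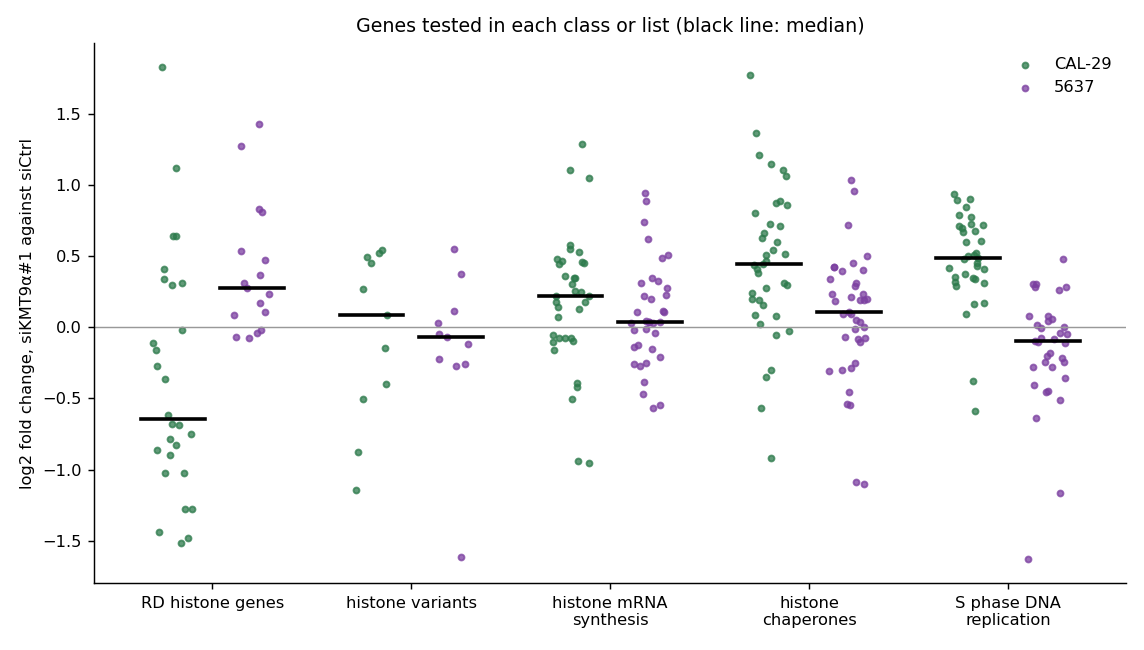
Log2 fold change with siKMT9α#1 of each tested gene of the classes and lists, in CAL-29 and in 5637 cells, with points for genes and a line at the median. Replication-dependent histone genes have a median of -0.65 (CAL-29) and 0.28 (5637), and S phase genes of 0.48 and -0.10.

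None of the testis-type genes had enough counts to be tested in either line. Of the 3 genes classed as pseudogenes by symbol, H3F3AP4 was tested in both lines and H2BFXP in 5637 cells alone. There H2BFXP had 0.368, 0.45 and 0.421 CPM in the siCtrl libraries and 0.637, 0.443 and 0.525 CPM in the siKMT9α#1 libraries. Its log2 fold change was 0.37 (adjusted p = 0.359). Pairs of genes with the same counts in each library, HIST2H2AA3 and HIST2H2AA4, HIST2H3A and HIST2H3C, HIST2H4A and HIST2H4B, and H2AFB1 and H2AFB3, cannot be told apart by these data and stand for the same reads.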

How the data were processed

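RNA of CAL-29 and 5637 cells was sequenced in 12 libraries, 3 per siRNA and line. Alignment to hg19 with STAR and counting on RefSeq transcripts with Homer were done by the authors, and the deposited tables hold estimated counts in steps of 0.5, without normalization. The authors' p-values, adjusted p-values and log2 fold changes per transcript were not used. Strandedness and RNA selection are not given in the sources used here.

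Each symbol was represented by its most counted transcript of a line, rounded to whole numbers. Genes that passed filterByExpr were scaled by TMM and tested together by edgeR 4.0.16 (R 4.3.3), using the quasi-likelihood F test without covariates beside the siRNA, at p below 1e-06 and at a Benjamini-Hochberg adjusted p below 0.05. The standard error (SE) is the log2 fold change divided by the square root of F. The interaction used a joint fit of all 12 libraries. The steps were tested on simulated counts. Replicates of a group differed by a chi-square per degree of freedom of 2.25 to 12.3, so their spread and not depth limits well-counted genes. Stem-loops and 3′ UTRs come from GENCODE on GRCh37 and promoters from RefSeq on GRCh38.p14 (Python 3.11.15, pandas 2.3.3).

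Values per library are given for every tested variant, for replication-dependent genes with a mean of at least 50 counts per library in both lines or called in both or in opposite directions, and for factors picked by role. Other genes are named as chosen after their values were seen. The members, classes and lists were chosen with earlier results of these data known. Replicate numbers of the sample titles were used. The alternatives were other scalings, other filters on low counts, every transcript, DESeq2 1.42.0, other thresholds, the replicate number as a block and each library left out in turn (for the counts at an adjusted p, added after the data were seen).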

Additional observations from a re-analysis of the deposited data

Results flagged for a closer look

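For 20 histone genes, the response to siKMT9α#1 differed between CAL-29 and 5637 cells at an adjusted p below 0.05 in edgeR's test of the interaction. The values are the log2 fold change in 5637 cells minus that in CAL-29 cells, and 50.4% of all genes tested differed in this way.

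Among H2A and H2B genes of the clusters, the difference was 1.54 (adjusted p = 2.38e-08) for HIST1H2AC, 2.02 (adjusted p = 0.0305) for HIST1H2AD, 2.20 (adjusted p = 0.0018) for HIST1H2AG, 2.09 (adjusted p = 0.0114) for HIST1H2AI and 2.53 (adjusted p = 0.0112) for HIST1H2AK for the H2A genes. For the H2B genes it was 1.14 (adjusted p = 7.57e-08) for HIST1H2BD, 0.71 (adjusted p = 2.24e-08) for HIST1H2BK and 1.39 (adjusted p = 4.04e-10) for HIST2H2BE. The H3 and H4 genes had 1.94 (adjusted p = 0.000607) for HIST1H3D, 1.61 (adjusted p = 0.00308) for HIST1H3E and 1.18 (adjusted p = 0.0152) for HIST1H4H. Each of these responded higher in 5637 cells, and the linker gene HIST1H1E responded lower, by -1.48 (adjusted p = 0.036). In the tests of each line alone, HIST1H1E and HIST1H2AK in CAL-29 cells and HIST1H2AG and HIST1H3D in 5637 cells passed the filter on low counts through the higher group. There these 4 were selected in part by the difference itself. The joint fit behind the interactions had its own filter over all 12 libraries. HIST1H2AG and HIST1H3D reached the minimum in 3 siCtrl and 3 siKMT9α#1 libraries of CAL-29 cells. HIST1H2AD, HIST1H2AI and HIST1H2AK were not tested in 5637 cells alone, where they had few counts.

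Of the variants, H2AFJ and H3F3B responded higher in 5637 cells, at 0.86 (adjusted p = 1.54e-10) and 0.16 (adjusted p = 0.0433). The responses of the other variants were lower there, with -0.17 (adjusted p = 0.0373) for H1FX, -0.48 (adjusted p = 1.56e-06) for H2AFX, -0.75 (adjusted p = 1.74e-08) for H2AFY2, -0.42 (adjusted p = 1.79e-05) for H2AFZ and -0.40 (adjusted p = 0.00011) for H3F3A. The pseudogene H3F3AP4, which holds the reads of H3F3A, had -0.40 (adjusted p = 0.000109). HIST1H2AD shares 85.3% of its exon bases with a further annotated gene on the same strand, so its reads are uncertain. The transfection reagent and the siRNA concentration differed with the line and cannot be told apart from it.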

How the results depend on the processing

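At 1e-06, replication-dependent genes passed 6 times in CAL-29 cells against 0 in 5637 cells, and variants 7 and 4 times. At an adjusted p below 0.05 these counts were 16, 4, 9 and 7, and with each library left out in turn, an alternative added after the data were seen, 13 to 18, 3 to 4, 8 to 9 and 6 to 8. With a log2 fold change beyond 1 in size required beside 1e-06, 1 variant passed in each line, and 4 and 0 replication-dependent genes. Across the other scalings and filters, DESeq2 and every transcript, the counts were 5 to 7 and 0 for replication-dependent genes and 6 to 8 and 4 for variants. With each library left out in turn they were 4 to 6 and 0 for replication-dependent genes, and 4 to 7 and 3 to 4 for variants. The interaction of line and siRNA held for 20 histone genes, for 13 with at least 10 counts in every library, since fewer genes were then tested, for 18 with DESeq2, for 21 with total counts, and for 16 to 21 with a library left out. Of 543 values of 42 results for single genes under these alternatives, 512 kept their direction and their side of the threshold, 21 missed 1e-06 and 4 passed it in addition. The other 6 changed direction in 5637 cells without having passed 1e-06: H2AFX was -0.0252 with total counts and -0.0127 with the upper quartile, HIST1H2BK was 0.024 without siCtrl replicate 2 and 0.0035 without siKMT9α#1 replicate 1 (range -0.0411 to 0.024 with a library left out), and HIST1H3E was -0.154 without siCtrl replicate 3 and -0.102 without siKMT9α#1 replicate 1 (range -0.154 to 0.381). With total counts, H3F3B (-0.32) and HIST1H2BD (-0.54) missed it in CAL-29 cells.

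A block for the replicate number gave these counts: 7 and 0 replication-dependent genes, 8 and 4 variants and 19 interactions passed, and H3F3A (0.27) and HIST1H4H (-1.03) passed 1e-06 in CAL-29 cells in addition. The cause was not tested. Same-numbered libraries of the siRNA groups had deviations with a correlation from -0.0134 to 0.0819, and not every library correlated best with its own number, so the numbers were not taken as pairs. Titles and descriptions number the siKMT9α#1 libraries differently. In 5637 cells, siCtrl 2 with siKMT9α#1 3 had 0.0386 and siCtrl 3 with siKMT9α#1 2 had 0.0332.

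Genes with few counts limit these results: most replication-dependent genes had under 10 counts per library and were not tested.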
